A study of Mus musculus with 4 samples.

Results

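The alleles described here are those for which the variant caller found a population frequency in the germline resource used by the authors. Each record of the deposited variant lists carries a value called POPAF, the negative log10 of the population frequency of its alternative allele. An allele that is missing from the resource receives a default, which in these lists is a POPAF of 2.02 (a frequency of 0.00955) and is held by 97.1% of records. The records with any other value were taken, whatever their variant type. They numbered 342 of 11806 in the 2 lists, 164 of 5445 for LM8 and 178 of 6361 for MBT2, and came from 315 distinct alleles of 10545. All 342 had a frequency above the default.

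A germline resource is a catalogue of inherited alleles with the share of chromosomes that carry each of them. Somatic callers weigh it in the odds that a variant was inherited, so that an allele that is common in the population needs stronger evidence to pass as acquired. In inbred mice, inherited differences are largely differences between strains, and a line from one strain shows them when it is compared with the reference genome of another. Errors that recur at the same place, such as length changes in runs of one base, can also enter such catalogues.

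The series lists sequence variants in RNA of 2 mouse cancer cell lines, MBT2 from bladder cancer and LM8 from osteosarcoma, both syngeneic with C3H/HeN mice and both untreated. MBT2 carries the clone label 63 and was grown in RPMI-1640, and LM8 was grown in MEM with 24 mM HEPES, each with 10% serum. Each line has 2 directional poly(A) libraries of paired 75-base reads, which were called together into 1 list without a matched normal sample. The labels do not say whether the 2 libraries of a line came from separate cultures, so differences between them may be technical. Tests that count variants therefore compare the 2 sets of alleles within a list, or the 2 lists, and not repeated cultures.

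The germline resource is not named in the sources used here. Median read depth over the listed alleles ran from 61 to 73 reads per library. At the resource alleles it was lower in MBT2 (41.5 and 41 reads) than in LM8 (62 and 56). The smallest depth of any listed allele was 14 reads over both libraries. The alternative-allele fraction below is the share of reads with the alternative allele, with the 2 libraries of a line summed. Intervals are exact Clopper-Pearson 95% intervals and cover counting error only, because several reads can stem from 1 amplified molecule. No expression levels are at hand to check the cell types, and none of the 15 urothelial markers looked up had a listed variant in MBT2, which says nothing of their expression.

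The share of alleles known to the resource did not differ detectably between the lists. It was 3.01% (2.57 to 3.50%) in LM8 and 2.80% (2.41 to 3.23%) in MBT2, an odds ratio of 1.08 (two-sided Fisher's exact test, p = 0.509). Among substitutions alone the shares were 3.71% and 3.85% (exact p = 0.786).

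Of the 52 missense and synonymous records, 50 matched their codon in the reference transcript named in the lists. These coding alleles give the sequence context. A C-to-T change, read on either strand, was in a CG dinucleotide in 7 of 12 LM8 alleles and in 7 of 13 MBT2 alleles. CG dinucleotides are where vertebrate DNA is methylated, and methylated cytosine is known for its high rate of change to thymine. The 14 windows are shown because they carry this comparison. Each is the coding strand of the GENCODE M21 transcript (build GRCm38), 5′ to 3′, with the CG in capitals, and each name gives the codon as the lists annotate it. The first 7 were listed in LM8 and the other 7 in MBT2.
Smarcc2 D814: tgagaagagtgaCGgggacccgatag
Ubtf T695M: cgatgaagatgaCGaagatgacgacg
Kifc5b C484: agggggcgagtgCGagatccgtcggg
Btbd9 Y120: ggctcacaaataCGgatttccagagc
Cntrl R2014C: gaagaggagcggCGcattgagggcct
Pus7 S126: atcacggcttctCGgggatcttaaaa
Dock6 A1072: tcctgtccatagCGgaccgaggctac
Hjurp R350H: gaaggaagcaaaCGccaagtccataa
Lta4h F578: tctcgctgccttCGacaaatcccatg
Ctsl A206: acccctatgaagCGaaggacggatct
Plec I2932: aatcatcaaaatCGtcatcacagtgg
Pum3 A469: gtgatggcaacgCGcacagcaagaag
Ddx58 R670Q: ggcagaacaaacCGggcaacaggaat
Nop2 R227W: cgagttcacaagCGgatccaggacat

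The share in a CG was 58.3% (27.7 to 84.8%) in LM8, against 22.8% of the 356 readable coding C-to-T changes at the default frequency (18.5 to 27.5%). In MBT2 it was 53.8% (25.1 to 80.8%) against 21.2% of 354 (17.0 to 25.8%). Coding substitutions on chromosome 18 were left out of this comparison in both lines. No coding resource substitution lay on that chromosome, so only the alleles at the default frequency were affected. Both differences passed Fisher's exact test, with an adjusted p of 0.0117 in each line over the 2 tests. The number of resource alleles is small, and the comparison was chosen after values were seen. With POPAF under 1.7 the differences were 27.2 and 28.8 percentage points and no longer passed (adjusted exact p = 0.140 in both). At fractions of 0.1 or more the LM8 difference was 12.5 points (adjusted exact p = 0.671), and at fractions under 0.1 the MBT2 difference was 1.65 points (adjusted exact p = 1).

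These 14 alleles ranged widely in fraction. Plec, which encodes the cytoskeletal linker plectin, had 66.3% and 67.4% in the 2 MBT2 libraries at 634 reads. Ctsl, the lysosomal protease cathepsin L, had 83.9% and 86.0%, and Lta4h, leukotriene A4 hydrolase, had 93.3% and 92.9%. All 7 LM8 alleles lay below these 3. Ubtf, a transcription factor of RNA polymerase I, was the highest of the 7 at 19.4% and 28.0%, and Smarcc2, a subunit of BAF chromatin remodelling complexes, was the lowest at 0.408% and 1.46%. The caller also deposited the median distance of each allele from the read end. It was 1 base for Smarcc2, Cntrl, Pus7, Pum3 and Ddx58, and 2 to 31 bases for the others of the 14.

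The alleles known to the resource were a different mix of variant types from the rest. Long deletions, defined here as 21 or more bases, were nearly missing. They made up 2 of 164 resource alleles in LM8 (1.22%, against 30.9% of the rest, adjusted exact p = 3.25e-22) and 0 of 178 in MBT2, which allows up to 2.05%, against 32.7% (adjusted exact p = 1.23e-29). Substitutions made up 63.4% in LM8 against 51.1% (adjusted exact p = 0.00275) and 68.5% in MBT2 against 49.3% (adjusted exact p = 9.85e-07). Insertions of 1 base made up 25.6% against 11.3% in LM8 (adjusted exact p = 1.43e-06) and 19.1% against 11.9% in MBT2 (adjusted exact p = 0.00845). Deletions of 1 to 20 bases made up 7.93% against 2.14% in LM8 (adjusted exact p = 1.55e-04) and 10.7% against 1.54% in MBT2 (adjusted exact p = 7.96e-10). Longer insertions, at 3 alleles in each line, did not pass. These are Fisher's exact tests adjusted over 10 tests, of which 8 passed. For the long deletions the contrast is given as a description. According to the caller, no long deletion at the default frequency lay in a repeat (LM8 0 of 1631, MBT2 0 of 2023). Their median fraction was 87.5% for LM8, and for MBT2 it was 86.7%. What these records are, and whether a catalogue of inherited alleles could list them, was not tested. The shares of the other types depend on the long deletions that fill the rest. Without them, an alternative of 8 tests chosen after seeing the data, the direction for substitutions turned, to 64.2% against 73.9% in LM8 (adjusted exact p = 0.0130) and 68.5% against 73.2% in MBT2 (adjusted exact p = 0.192). Insertions of 1 base were then 25.9% against 16.3% in LM8 (adjusted exact p = 0.00632) and 19.1% against 17.6% in MBT2 (adjusted exact p = 0.616). Deletions of 1 to 20 bases remained higher, at 8.02% against 3.10% in LM8 (adjusted exact p = 0.00632) and 10.7% against 2.28% in MBT2 (adjusted exact p = 9.26e-07). Longer insertions then passed as lower, at 1.85% against 6.66% and 1.69% against 6.85% (adjusted exact p = 0.0170 and 0.00632). At fractions under 0.1 the deletions of 1 to 20 bases turned to 1.31 points lower in LM8 and 2.22 points lower in MBT2 (adjusted exact p = 0.807 and 0.585), and LM8 substitutions to 7.56 points lower (adjusted exact p = 0.286). The higher share of 1-base insertions no longer passed with POPAF under 1.7 (4.03 and 2.12 points higher, adjusted exact p = 0.220 and 0.470).

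**Figure D1:**
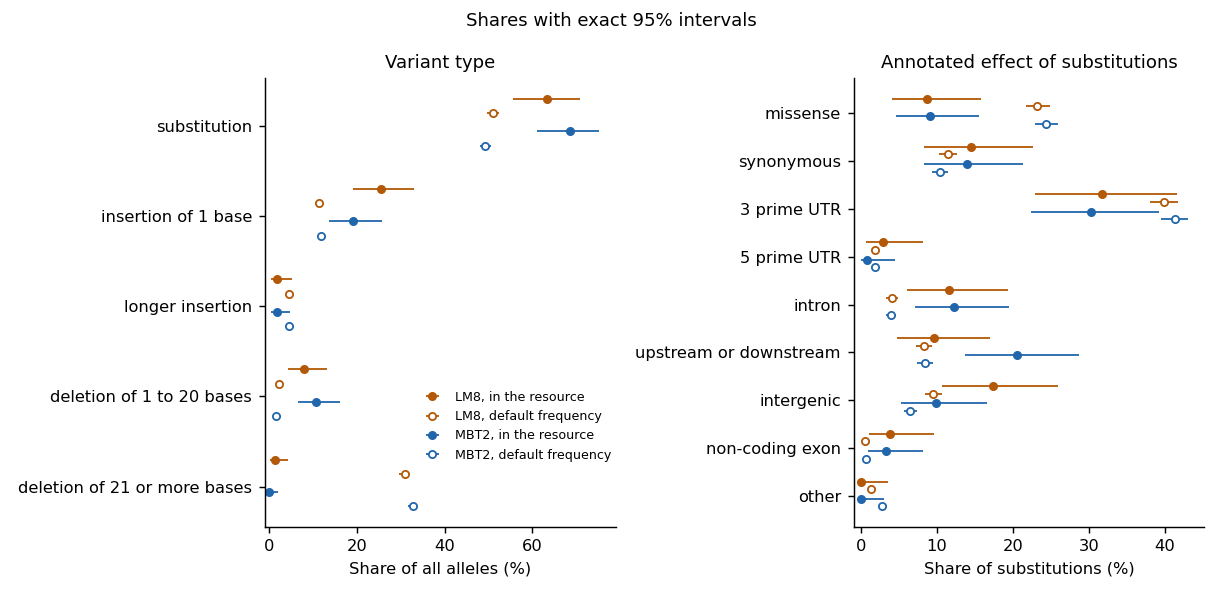
Share of alleles by variant type (left, % of all alleles of a set) and share of substitutions by annotated effect (right, % of substitutions), for LM8 in orange and MBT2 in blue. Filled points are alleles in the germline resource, open points are alleles at the default frequency, and bars are exact 95% intervals. Long deletions sit at 1.22% and 0% for resource alleles and at 30.9% and 32.7% for the rest.

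Length changes are known to be frequent in runs of one base. Of the 76 inserted single bases, 40 of 42 in LM8 and 34 of 34 in MBT2 lay in a repeat according to the caller, and 38 and 31 of the repeats had A or T as their unit. This holds for 1-base insertions at the default frequency also, with 586 of 596 and 710 of 733 in a repeat and 569 and 698 of the units A or T. Their median fraction was low, 4.41% in LM8 and 6.03% in MBT2, close to the 4.09% and 3.98% of the 1-base insertions at the default frequency. A fraction of 0.6 or more was less rare among resource insertions, with 7 of 42 and 6 of 34 against 9 of 596 and 14 of 733. Repeats of 8 or more units held 4 resource insertions in LM8 and 4 in MBT2, against 2 and 2 at the default frequency. By median fraction, deletions of 1 to 20 bases stood at the other end. In LM8, 11 of 13 were at a fraction of 0.6 or more (median 88.9%), and in MBT2, 17 of 19 (median 88.8%). At the default frequency such deletions reached that level in 17 of 113 cases in LM8 and 13 of 95 in MBT2. Their repeats were long, with 8 or more units in 10 of the 12 LM8 deletions that lay in a repeat and in 16 of 18 in MBT2, against 13 of 78 and 10 of 62 at the default frequency. These contrasts within types were described after values were seen and were not tested.

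Named examples show the same range. In LM8, Msi2, an RNA-binding protein, had a T run shortened from 11 to 10 at 88.5% and 76.0% in the 2 libraries. Med30, a subunit of the Mediator complex, had a T run shortened from 9 to 8 at 88.8% and 90.5% of 259 reads. In MBT2, Vegfa, the angiogenic growth factor, had an AT repeat shortened from 10 to 9 units at 90.2% and 85.7%. Scd1, stearoyl-CoA desaturase, had an A run shortened from 10 to 9 at 64.2% and 75.8% of 286 reads, the lowest of the high MBT2 deletions. These deletions are all annotated to 3′ untranslated regions and were named after their values were seen. The 2 long deletions were both in LM8, a loss of 26 bases outside genes at 27 of 27 reads and a loss of 30 bases in a TG repeat of Rassf2, a Ras-association domain gene, at 92.3% and 86.2%.

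Alternative-allele fractions of resource substitutions were higher than those of the rest. In LM8 the median was 0.101 over 104 substitutions against 0.0578 over 2698, and in MBT2 it was 0.143 over 122 against 0.0606 over 3047. By library, the resource substitutions had medians of 11.5% and 9.69% (LM8) and of 12.7% and 17.0% (MBT2). Both differences in medians gave a two-sided permutation p of 1e-05, the smallest that 100000 resamples can give. The authors' germline filter uses the population frequency, so which of these alleles stayed in the lists depends on fraction and frequency together.

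The difference lay at both ends of the range. A fraction of 0.6 or more was held by 28.8% of LM8 resource substitutions (30 of 104) against 6.56% of the rest (adjusted exact p = 4.35e-11), and by 35.2% in MBT2 (43 of 122) against 10.2% (adjusted exact p = 3.07e-12). Fractions under 0.1 made up 50.0% in LM8 against 72.9% (adjusted exact p = 1.70e-06) and 39.3% in MBT2 against 66.7% (adjusted exact p = 4.35e-09). These Fisher's exact tests were adjusted over 6 tests together with the medians, and 6 of 6 passed. None of the 342 resource alleles had a fraction from 0.4 to 0.6. The gap was not particular to them, since 2520 of the 2698 other LM8 substitutions lay under 0.4 and 177 at 0.6 or more, and 2734 and 310 of the 3047 in MBT2.

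**Figure D2:**
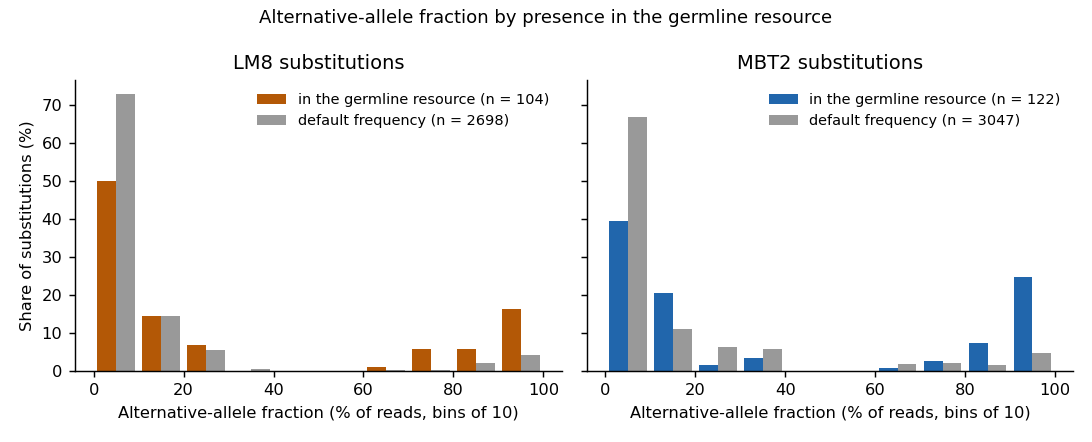
Share of substitutions (%) by alternative-allele fraction in bins of 10% of reads, both libraries summed, for LM8 (left) and MBT2 (right). Coloured bars are resource alleles and grey bars are alleles at the default frequency. The highest bin holds 16.3% and 24.6% of resource substitutions and 4.08% and 4.73% of the rest.

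Resource alleles thus fell into a high class of 120 records and a low class of 222. In LM8 the high class had a median fraction of 89.5% and a median population frequency of 0.288, and the low class 4.85% and 0.0338. In MBT2 the medians were 91.9% and 0.285 in the high class, and 6.97% and 0.0575 in the low class. The high class was also read less deeply, with a median depth of 57 reads against 154 in LM8, and 43 against 143.5 in MBT2. The germline score that the authors deposited, a phred-scaled value in which a higher number means less support for an inherited allele, had a median of 18 and 19.5 in the high class and 93 in the low class of both lines. The score is computed from the population frequency and is given here as a description. Neither split was particular to resource alleles. Substitutions at the default frequency, which share 1 POPAF, had median depths of 26 reads at 0.6 or more against 112 under 0.4 in LM8. In MBT2 these were 41 against 138. Their median germline score was 8 in LM8 and 12 in MBT2 at 0.6 or more, and 93 under 0.4 in both.

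Population frequency ran from 0.00977 to 0.828, with 114 distinct values. The most common value was a POPAF of 1.72 (a frequency of 0.019), which 86 records shared, 50 in LM8 and 36 in MBT2. Only 4 of these 86 had a fraction of 0.6 or more, all in MBT2, against 116 of the other 256. In LM8, the share at a fraction of 0.6 or more was 5.88% of the 68 alleles with a frequency under 0.05, 31.4% of the 51 from 0.05 to under 0.25, and 71.1% of the 45 from 0.25. In MBT2 the shares were 18.5% of 65, 30.4% of 56 and 68.4% of 57. Across alleles, Spearman's rho between frequency and fraction was 0.54 over 164 in LM8 and 0.40 over 178 in MBT2, points that share libraries and the caller's filter. Within the low class rho was 0.19 and 0.22.

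**Figure D3:**
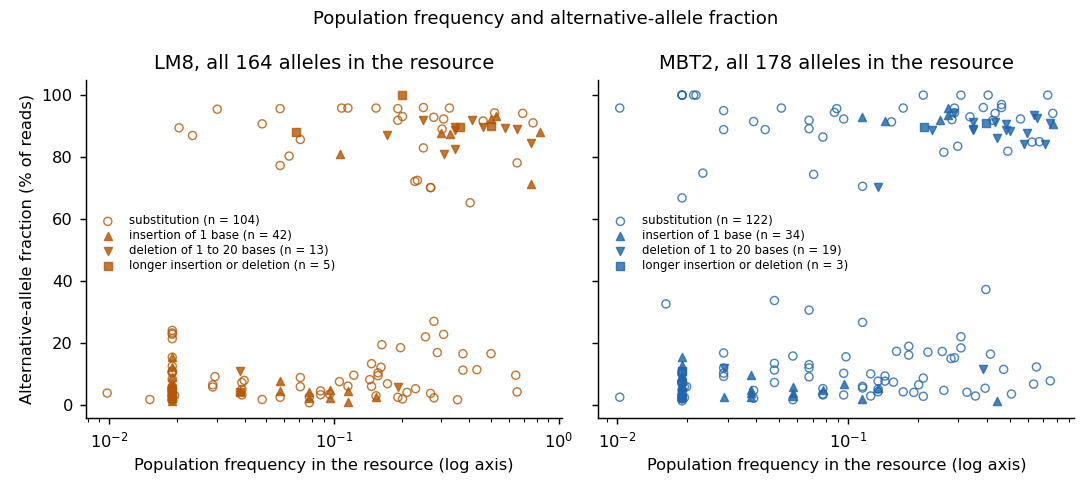
Alternative-allele fraction (% of reads, both libraries summed) against population frequency in the resource (log axis) for the 164 LM8 and 178 MBT2 records, with a symbol for each variant type. No record lies between 40 and 60% of reads, and the column of 86 records at a frequency of 0.019 holds 4 at 60% or more.

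The most frequent alleles in the resource were named by rank. In LM8 these were insertions of 1 base in Elmo1, a regulator of Rac activation (frequency 0.828, 91.5% and 82.8% of reads), and Pcm1, a centriolar satellite protein (0.750, 70.3% and 72.7%), and a substitution in Ugcg, glucosylceramide synthase (0.769, 92.3% and 90.0%). In MBT2, Cd2ap, an adaptor protein (0.769, 93.3% and 88.6%), and Vcpip1, a deubiquitinase (0.769, 100% and 88.2%), were high. At a frequency of 0.750 2 MBT2 alleles tied, one 3′ of Tm4sf19 at 9.80% and 6.4% and a 1-base deletion beside Mfhas1 at 90.5% and 91.7%. In LM8 the deletion in Msi2, described above, tied with Pcm1. Closest to the default were 5 substitutions with a POPAF above 1.72. Their values were 2.01 for an LM8 allele outside genes (4.02% of 199 reads), 1.99 for MBT2 alleles at Gpatch11 (2.67% of 150) and outside genes (95.8% of 24), and 1.82 in LM8 and 1.79 in MBT2 for Def8. Just outside the rule lie the records at 2.02 itself.

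At the extremes of fraction with at least 20 reads, 6 LM8 alleles were at 95.8% or more. They were the 26-base loss, and substitutions in Crim1, Fmn1, Tmem132d, Nectin2 and beside Dubr, each with 24 to 27 reads. Nectin2, at 23 of 24 reads, tied with Dubr, Fmn1 and Tmem132d and lies outside the 5 named by rank. In MBT2, alleles in Gm15506, in Abtb1, in Timeless, a replication fork protein, and in Mxd4, a MAX dimerization protein, were at 100% of 21 to 27 reads. The lowest fractions came with high depth. Smarcc2 was at 0.889% of 450 reads, Prrx1, a homeobox factor of mesenchymal cells, at 1.19% of 1350, and Tmem59 at 1.45% of 1660 in LM8, with Bmi1, a Polycomb protein, at 1.84% of 326. Ei24 at 1.42% of 424, Rabggtb at 1.51% of 861, Sec23a, a COPII coat protein, at 1.87% of 268, and Hif1an, an asparagine hydroxylase of HIF, at 2.2% of 227 were low in MBT2. Lrrc59 was among the 5 lowest of both lines.

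The class of substitution differed from the rest in LM8. C-to-T changes (C>T or G>A on the genome) were 54.8% of 104 resource substitutions against 36.0% of the rest (adjusted exact p = 0.00227), and T-to-C changes were 26.9% against 41.1% (adjusted exact p = 0.0293). In MBT2, C-to-T changes were 41.0% against 31.1% (adjusted exact p = 0.104) and T-to-C changes 40.2% against 45.3% (adjusted exact p = 0.475). These are Fisher's exact tests adjusted over 14, of which 2 passed, both in LM8. The difference of the contrast between the lines was tested for 30 such measures by an exact test of the odds ratios, and 0 passed (1 at an unadjusted exact p under 0.05, smallest adjusted p = 0.789). Both LM8 calls were lost with POPAF under 1.7 (adjusted exact p = 0.130 and 0.156), and at 40 or more reads the C-to-T share passed in MBT2 also (20.96 points higher, adjusted exact p = 0.00219).

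On the strand of the annotated gene, the LM8 pattern was in G-to-A changes, 40% of 85 against 26.5% (adjusted exact p = 0.0349), C-to-T changes, 17.6% against 9.14% (adjusted exact p = 0.0357), and T-to-C changes, 11.8% against 23.9% (adjusted exact p = 0.0349). A-to-G changes, the kind that A-to-I editing leaves in RNA, were 12.9% against 17.9% in LM8 and 17.4% against 21.7% in MBT2 and did not pass (adjusted exact p = 0.391 in both). In MBT2, 0 of 4 classes passed. This comparison by Fisher's exact test, adjusted over 8, was added after values were seen. None of the 3 LM8 calls passed with POPAF under 1.7 (adjusted exact p = 0.214, 0.279 and 0.101) or at fractions of 0.1 or more (adjusted exact p = 0.497, 0.163 and 1). None of the listed genes known as A-to-I editing targets, 10 in LM8 and 13 in MBT2 of 27 looked up, held a resource allele. Over all genes with a listed variant, 3.8% of 3495 in LM8 and 3.76% of 3933 in MBT2 held one, so 0 of 10 and 0 of 13 are near the background.

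Resource substitutions were placed differently in genes. Missense changes were 8.65% in LM8 (9 of 104) against 23.2% of the rest (adjusted exact p = 8.57e-04) and 9.02% in MBT2 (11 of 122) against 24.4% (adjusted exact p = 4.42e-04). Synonymous changes were 14.4% against 11.4% and 13.9% against 10.4% and did not pass (adjusted exact p = 0.445 and 0.313). Introns held 11.5% against 4.04% in LM8 (adjusted exact p = 0.00514) and 12.3% against 3.91% in MBT2 (adjusted exact p = 8.57e-04). Flanks upstream or downstream of genes held 20.5% against 8.37% in MBT2 (adjusted exact p = 4.42e-04) and 9.62% against 8.23% in LM8 (adjusted exact p = 0.659). Exons of non-coding transcripts, with 4 resource alleles in each line, held 3.85% against 0.556% (adjusted exact p = 0.0135) and 3.28% against 0.689% (adjusted exact p = 0.0363). Substitutions outside genes were 17.3% against 9.49% in LM8 (adjusted exact p = 0.0371), and those in 3′ untranslated regions 30.3% against 41.3% in MBT2 (adjusted exact p = 0.0371). These are Fisher's exact tests adjusted over 18, of which 9 passed.

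Several of these calls rest on a subset of alleles. The LM8 excess outside genes came to 0.72 points without sites within 100 bases of another listed variant (adjusted exact p = 0.844) and to -0.36 points at fractions of 0.1 or more. The LM8 intron call was lost without Hjurp, Def8 and Sfi1 (4.84 points, adjusted exact p = 0.0554), and the MBT2 intron call at 40 or more reads (3.83 points, adjusted exact p = 0.0876), at fractions of 0.1 or more (9.02 points, adjusted exact p = 0.1004) and at fractions under 0.1 (3.99 points, adjusted exact p = 0.183). At fractions of 0.1 or more the MBT2 flank call was lost (7.10 points, adjusted exact p = 0.288), as was the LM8 intron call (5.52 points, adjusted exact p = 0.375). Non-coding exons passed in neither fraction class in either line. At 40 or more reads the MBT2 calls for non-coding exons and 3′ untranslated regions were also lost (adjusted exact p = 0.116 and 0.190). The MBT2 missense difference passed under every alternative, and the LM8 one under every alternative but fractions of 0.1 or more (13.1 points lower, adjusted exact p = 0.116).

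Position in the read also differed. The median distance of the allele from the read end, as the caller deposited it, was 17 bases in LM8 against 4 for the rest, and 15 against 5 in MBT2 (permutation test, adjusted p = 2.00e-05 and 8.10e-04). Low-fraction substitutions showed most of the contrast. Below a fraction of 0.4 the medians were 16 against 4 bases in LM8 and 15 against 3 in MBT2, while at 0.6 or more they were 19 against 17 and 14 against 18. Read depth of resource substitutions was 92.5 reads in LM8, 12.5 below the rest (permutation test, adjusted p = 0.363), and 70 against 132 in MBT2 (adjusted p = 6.20e-04), a difference that was 3 reads among sites of 40 or more reads (adjusted p = 0.880). The part of depth and read position in the differences of class and effect was not tested.

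Of the 27 alleles listed in both lines, 14 were substitutions, 10 were insertions of 1 base and 3 were deletions of 1 base, and each had the same POPAF in both lists. They made up 16.5% of the LM8 and 15.2% of the MBT2 resource records, against 23.4% and 19.96% of the rest. Within substitutions the shares were 13.5% against 8.01% and 11.5% against 7.09%. None of these 4 differences passed Fisher's exact test after adjustment (adjusted p from 0.0990 to 0.127, with 1 under 0.05 before adjustment). A shared allele is a record of both lists, so the tests of the lines are not independent. Within substitutions, the same 14 resource alleles and the same 216 at the default frequency were counted in each line. Over all types, the rest contains the long deletions. Without them the direction turned, to 16.7% against 13.4% in LM8 and 15.2% against 11.8% in MBT2 (adjusted exact p = 0.240 in both). Without sites within 100 bases of another, both differences within substitutions passed (8.46 and 6.73 points higher, adjusted exact p = 0.0321 and 0.0324). At fractions of 0.1 or more, with long deletions kept, sharing over all types passed as lower. It was 11.7% against 32.0% in LM8 and 8.65% against 25.2% in MBT2 (adjusted exact p = 1.64e-04 and 1.56e-04). In both alternatives the differences that passed draw on alleles shared by the lines, so they are not separate results of each line.

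The 3 deletions were in 3′ untranslated regions at a frequency of 0.346. Bbx, an HMG-box factor, had 87.2% and 78.7% in LM8 and 85.0% and 91.8% in MBT2. Cnot4, a ubiquitin ligase of the CCR4-NOT complex, had 84.4% and 95.3% in LM8 and 90.9% and 87.1% in MBT2. Kif5b, a kinesin heavy chain, had 90.0% and 87.8% in LM8 and 95.5% and 87.5% in MBT2. All 4 libraries were high at all 3, and the lines overlapped.

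The 10 insertions stayed low. In Khsrp, which promotes decay of AU-rich mRNA, one was at 5.25% and 4.26% in LM8 and at 2.78% and 3.54% in MBT2 over 738 and 784 reads, and a second lay within the same 3′ untranslated region at 3.73% and 4.35%. Gnai3, an inhibitory G protein subunit, had 3.35% and 3.01% against 4.05% and 4.55%. Camk2d, the delta subunit of calmodulin-dependent kinase II, had 3.90% and 5.17% against 2.41% and 3.34%. Prmt3, a protein arginine methyltransferase, had 5.46% and 5.76% against 1.27% and 4.97%, and Kdm2a, a histone demethylase, had the highest summed fractions of the 10 at 9.27% and 9.39%. Cdk14 and Stk24, both kinases, had summed fractions of 4.76% and 4.95%, and of 3.44% and 4.05%.

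Shared substitutions were spread more widely. The one in Ubxn2a, W104R, had 7.35% and 4.11% in LM8 and 4.42% and 1.87% in MBT2. Its median distance from the read end was 1 base in both lines. Lrrc59, a membrane protein of the endoplasmic reticulum, had the most reads, with 2.00% and 1.19% of 1138 in LM8 and 1.99% and 2.38% of 1182 in MBT2. Polr1f, a subunit of RNA polymerase I, was at 2.64% and 4.22%, Ptbp3, an RNA-binding splicing factor, at 3.66% and 3.70%, and Mmgt1 at 2.78% and 3.68%. The substitution in Tpt1-ps3 was at 4.23% and 2.95%. That gene, Rplp2-ps1, Gm10401 and Gm21811 bear names of processed or uncharacterised copies, where reads of a near-identical gene could be assigned, so their fractions are uncertain.

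**Figure D4:**
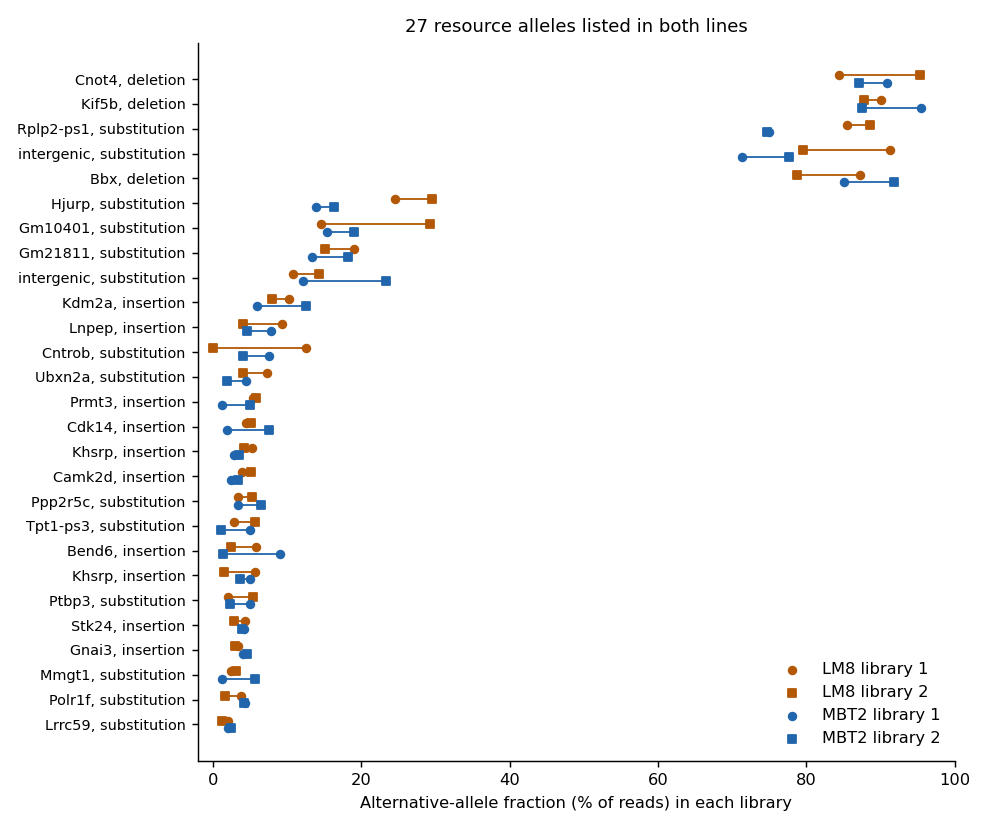
Alternative-allele fraction (% of reads) of the 27 resource alleles listed in both lines, 1 row per allele, ordered by the summed LM8 fraction. Circles are library 1 and squares library 2, orange LM8 and blue MBT2, and a line joins the 2 libraries. The 3 deletions and 2 substitutions lie above 70% in all 4 libraries, and the 10 insertions below 13%.

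Over all 1261 shared sites, 92 (7.3%) differed in fraction between the lines by Fisher's exact test on summed reads, adjusted over the 1261. Of the 27 resource alleles, 2 did, and 3 before adjustment, a share near that background. At Hjurp, which encodes the chaperone that places the centromeric histone CENP-A, the allele at chromosome 1, position 88192706 (GRCm39, 3′ untranslated region) had 24.5% and 29.5% in LM8 and 13.9% and 16.3% in MBT2 (adjusted exact p = 2.07e-04). The libraries of the lines did not overlap. An allele outside genes at chromosome 5, position 7543328, had 91.3% and 79.5% in LM8 and 71.4% and 77.6% in MBT2 (adjusted exact p = 0.0388). Rplp2-ps1 had 85.5% and 88.6% against 75% and 74.7% (adjusted exact p = 0.0739). The libraries of the lines did not overlap at 8 of the 27, against 37.8% of all shared sites. Without LM8 replicate 1, or without MBT2 replicate 1, 1 of the resource alleles passed.

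No difference between duplicate libraries beyond counting error was detected, and at these depths the test can miss moderate ones. After adjustment over all sites of a line, 0 of 164 LM8 and 0 of 178 MBT2 resource alleles differed between library 1 and 2 by Fisher's exact test, as did 0% of all sites of each line. Before adjustment, 6 of 164 and 2 of 178 had an exact p under 0.05, against 3.89% and 3.76% of all sites. The median absolute difference between libraries was 3.46 percentage points in LM8 and 3.44 in MBT2, and the largest was 25 and 21.4 points. In LM8, 5 alleles had no alternative read in library 1 and 6 had none in library 2. In MBT2 it was 5 and 0.

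The 315 alleles included 8 genes with 3 or more records. Hjurp held the most, 15 of the 16 records listed for it in both lines, 4 of 4 in LM8 and 11 of 12 in MBT2. In LM8, 3 of its 4 lay between 19.6% and 27.1%, and the fourth, at position 88192844, was at 66.5% and 64.1% of 447 reads. In MBT2 the 11 ran from 9.50% to 33.8% over 11948 bases. Only the allele at 88192706 was listed in both lines. Population frequencies at Hjurp in MBT2 ranged from 0.0479 to 0.471.

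Def8 had 5 of its 17 listed records in the resource, all annotated to introns and read very deeply. In LM8 2 of them were at 19.0% and 18.2% and at 15.9% and 17.7%, and the other 2 at 1.58% and 2.13% and at 1.66% and 2.25%, over 2127 to 2736 reads. The single MBT2 allele was at 31.3% and 34.0% of 3301 reads, the deepest resource allele of that line. In LM8, the 8 other Def8 records ran from 1.92% to 16.4%, and in MBT2 the 4 others ran from 2.96% to 95%. Frequencies ranged from 0.0151 to 0.5 in LM8, and the MBT2 allele had 0.0162.

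**Figure D5:**
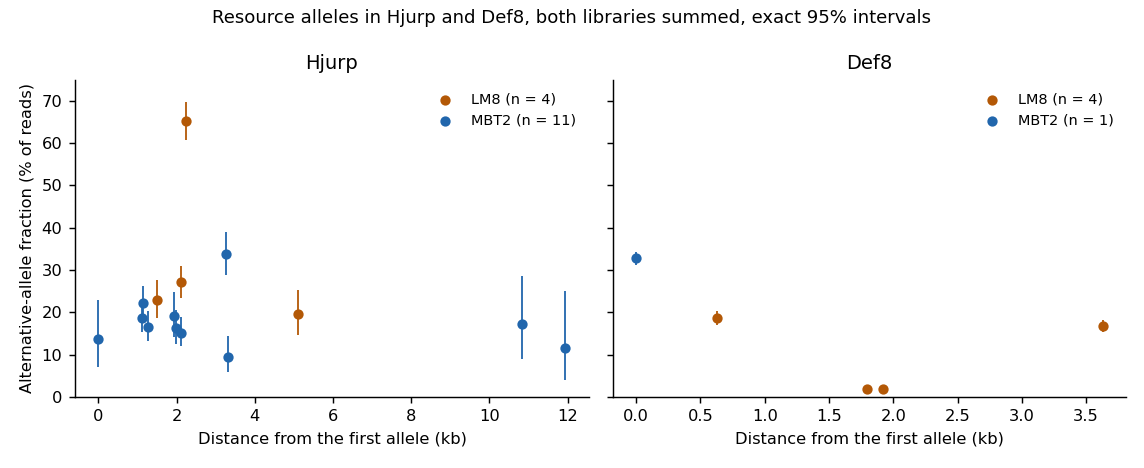
Alternative-allele fraction (% of reads, both libraries summed, exact 95% intervals) of the resource alleles in Hjurp (left) and Def8 (right) against the distance in kb from the first of them, LM8 in orange and MBT2 in blue. In Hjurp 1 LM8 allele stands at 65.3% and the other 14 records at 33.8% or less, and in Def8 2 LM8 alleles lie near 2%.

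The other genes had fewer. Sfi1, a centrin-binding protein of the centrosome, had 3 of 11 records, all in LM8 at 9.30 to 11.5%, among them E1110G and L823F. Ifi203, of the interferon-inducible PYHIN family, had 3 of 3, all in MBT2. Its L504 synonymous allele was at 82.4% and 84.7%, while H606Y was at 9.42% and 11.5%, and a deletion in its 3′ untranslated region at 10.8% and 12.6%. Slfn9, of the Schlafen family, had a synonymous allele and T207P in LM8 (8.33% and 7.02%) and N288D in MBT2 (7.53%). Tm4sf19 had 3 alleles downstream of it in MBT2 at 7.93 to 12.1%. Camk2d had, besides its shared insertion, a shortened T run at 78.6% and 83.7% in LM8, and Khsrp had its 2 shared insertions.

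Protein sequence was altered in 22 records, 20 missense changes and 2 in-frame insertions, and 4 of their codons are shown because they include the shared allele and the 2 MHC class I alleles. Capitals mark the codon in the reference transcript (GENCODE M21, GRCm38), 5′ to 3′ on the coding strand.
Ubxn2a W104R: ccttcagaattaTGGggaatttttgat
H2-K1 Y277N: gggaaggagcagTATtacacatgccat
H2-Q4 R251K: gatgtcaccctgAGGtgctgggccctg
Tnxb T2050S: gccccagagcccACTgaggagccactc

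H2-K1, a classical MHC class I heavy chain that presents peptides to T cells, had Y277N in MBT2 at 36.4% and 38.4% of 776 reads. H2-Q4, a class Ib gene of the Qa region, had R251K in LM8 at 9.92% and 13.2% of 237 reads. MHC class I genes are near-identical in long stretches and differ between strains, so reads of one gene could be assigned to another. Of 25 antigen presentation genes looked up, 5 were listed in LM8 and 3 in MBT2. A resource allele was found in 1 of the 5, H2-Q4, and in 1 of the 3, H2-K1. Over all genes with a listed variant the share was 3.8% in LM8 and 3.76% in MBT2. With so few genes listed, no test was run. Nop2, an rRNA methyltransferase, had R227W at 30.6% and 30.9% of 1732 reads in MBT2, the deepest protein-altering allele. Hjurp had R350H at 32.4% and 35.3% and G337D at 8.08% and 10.9% in MBT2.

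The high protein-altering alleles were few. In LM8, Tnxb, which encodes the matrix glycoprotein tenascin X, had T2050S at 80.3% and 87.2% of 100 reads, and Nsd3, a histone methyltransferase, had an inserted codon (S148PS) in a TCC repeat at 85.0% and 90.3%. In MBT2, Prr12 had an inserted codon (P1038PP) in a GGC repeat at 96.4% and 87.2%, Abtb1 had Y286H at 100% of 24 reads, and Tmem169 had T220A at 90.9% and 100% of 24 reads. Tmem169 was named after its value was seen. The remaining missense alleles were low. Gon4l I1149L and Cntrl R2014C in LM8 had no alternative read in library 2 (9.52% and 11.5% in library 1), and in MBT2, Dync2i1 Q732H was at 11.7% and 13.1% and Ddx58 R670Q, in the RNA sensor RIG-I, at 14.3% and 5.88%. Cntrl, Dync2i1 and Ddx58 lay a median of 1 base from the read end, and Gon4l 21 bases.

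Of 46 cancer driver genes looked up, 25 had a listed variant in LM8 and 26 in MBT2. A resource allele was found in 1 of them, a share near that over all listed genes. This was Nf2, which encodes the tumour suppressor merlin. The allele was a substitution in the 3′ untranslated region at 5.88% and 3.8% in MBT2, at a frequency of 0.259, and was named because it was the single case.

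Alleles private to one line made up 137 of the LM8 and 151 of the MBT2 records. Those with a fraction of 0.6 or more numbered 47 in LM8 and 63 in MBT2. At 0 of these 110 sites did the other list hold a different allele at the same position. For 40 of the 47 and 59 of the 63 the lists name a gene, and that gene had any record in the other line's list for 17 and 14 of them. The same counts for alleles at the default frequency are not given here, so these counts have no background beside them. A site that is missing from a list may be unread, unaltered or filtered, and these cannot be told apart here.

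Resource alleles lay on 20 chromosomes in each line and on neither the Y chromosome nor mitochondrial DNA. The Y chromosome held 9 listed variants in LM8 and 4 in MBT2, and mitochondrial DNA held 4 and 5, so few that the absence says little. Within 100 bases of another listed variant lay 16.5% of LM8 resource alleles against 11.2% of the rest, and 11.8% against 10.5% in MBT2. Neither passed Fisher's exact test (adjusted exact p = 0.0907 and 0.537). The LM8 difference passed without LM8 replicate 1 (6.19 points, adjusted exact p = 0.0399) and at 40 or more reads (7.02 points, adjusted exact p = 0.0264).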

How the data were processed

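The deposited data are 1 variant list per line in variant call format 4.2. Joint calls over its 2 libraries were made with Mutect 2.2, filtered with FilterMutectCalls of GATK 4.1.5.0 and annotated with SnpEff 5.1d (database 105, GRCm39), per the file headers. The submitters' processing notes name bcl2fastq 2.17.1.14, cutadapt 1.9.1, STAR 2.7.9a and GATK 4.3.0. The columns used hold read counts per allele and library, and POPAF, distance from the read end and germline score per record, in other units as deposited by the authors. The resource and its default are not given in the sources used here. The default was taken as the value held by nearly all records.

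Libraries were grouped by the line in their titles and their reads summed. Shares were compared with two-sided Fisher's exact tests and medians with permutation tests (100000 resamples), adjusted by Benjamini-Hochberg within each family, with scipy in Python. Scripts were tested on simulated data. Coding windows were read from GENCODE M21 transcripts by transcript and codon number. Alternatives (some chosen after seeing the data) left out each library, shallow sites, near sites or part of the alleles.

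Alleles named were those shared by both lines (15 deepest), per line the 10 deepest protein-altering, the 5 highest and 5 lowest fractions at 20 or more reads, the 3 highest and lowest frequencies, and genes with 3 or more records. Other names were chosen after their values were seen. The alleles and gene lists were chosen with earlier results of these data known. One allele that this rule names is not reported here.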

Additional observations from a re-analysis of the deposited data

How the results depend on the processing

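Of 33 single differences that passed, 11 kept their direction and their side of the threshold under every alternative run on them. Those chosen after seeing the data were POPAF under 1.7, fractions of 0.1 or more, fractions under 0.1, leaving out Hjurp, Def8 and Sfi1, and leaving out deletions of 21 or more bases. The cause of the changes below was not tested, except where stated.

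Counts of differences passed moved as follows. At 40 or more reads, depth passed in 0 of 2 lines, sharing between lines in 1 of 4 tests and clustering in 1 of 2. Without sites within 100 bases of another, sharing passed in 2 of 4. With POPAF under 1.7, substitution class passed in 0 of 14, RNA-strand class in 0 of 8 and CG context in 0 of 2. At fractions of 0.1 or more, class passed in 0, RNA-strand class in 0, CG context in 1, effect in 1 of 18 and sharing in 2. Those 2 were over all types and lower for resource alleles, while the 2 without near sites were higher and within substitutions. Each pair holds a test per line on alleles shared by the lines, so its tests are not independent. At fractions under 0.1, type passed in 4 of 10, class in 1, effect in 5 and CG context in 1. Without the 3 genes, class passed in 1 and RNA-strand class in 1. Leaving out 1 library, clustering passed in 0 to 1 of 2 tests, the fraction at shared sites in 1 to 2 of the resource alleles and in 55 to 73 of all shared sites.

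Among differences that passed, directions turned in 6 cases. Without deletions of 21 or more bases the substitution share was -9.72 points in LM8 and -4.71 in MBT2, which follows from the smaller denominator of the rest. The LM8 share outside genes was -0.36 points at fractions of 0.1 or more, and at fractions under 0.1 the LM8 substitution share was -7.56 points and the share of deletions of 1 to 20 bases -1.31 points in LM8 and -2.22 in MBT2. All alleles lie above the default frequency, so that alternative changed nothing, and the type comparison within substitutions alone gives no value and was not run.

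Replicate numbers only name the libraries here. With the replicate number as a block (replicate block, Cochran-Mantel-Haenszel test), 1 of 27 resource alleles differed between lines in place of 2. The share over all shared sites under this block is not given here, so the change has no background beside it.

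The median depth of the resource alleles was 114.5 reads in LM8 and 80 in MBT2, so an allele at 2% of reads rests on few of them.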

Other observations

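A run of resource alleles lay outside genes on the X chromosome of LM8. Between positions 169090963 and 169100663 (GRCm39) there were 5 substitutions, at 79.3% and 74.4%, 71.6% and 73.6%, 71.1% and 73.3%, 72.6% and 67.4%, and 72.5% and 67.5% in libraries 1 and 2. Their depth rose from 97 to 765 reads along the run, and their population frequencies were 0.0575 to 0.269. All 5 lay between 70% and 77.3% with the libraries summed, below the LM8 high-class median of 89.5%. They were singled out after their values were seen. The first had another listed variant 42 bases away. Of the others, 2 lay 55 bases apart and 2 lay 15 bases apart. Reads of 75 bases can cover both alleles of such a pair, so the 5 are not independent.

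The share of listed variants found in the resource differed among chromosomes. Among chromosomes with a resource allele it ran from 0.806% (2 of 248) on chromosome 10 to 7.80% (11 of 141) on chromosome 12 in LM8, and from 0.849% (4 of 471) on chromosome 2 to 7.01% (26 of 371) on chromosome 1 in MBT2, where Hjurp gives 11 of the 26. No test was run.

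Pseudogenes, by the annotated biotype, held 5.49% of LM8 resource records against 1.95% of the rest, and 5.62% against 1.81% in MBT2. Names of multicopy or uncharacterised genes (Zfp, Olfr, Vmn, Gm, Rik, Rn18s, Rps and Rpl) held 10.98% against 7.57% and 11.2% against 6.94%. Mitochondrial genes held 0 resource records of 4 and 5 listed. Among cell type markers, 4 of 15 osteoblast and mesenchymal genes had a listed variant in LM8, with a resource allele in 1, Prrx1, and 2 in MBT2 with none. None of the 15 urothelial, 5 immune and 3 endothelial markers was listed in either line.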
